A study of Homo sapiens with 6 samples.

Results

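The genes described here encode the enzymes that build cholesterol from acetyl-CoA, the proteins that control their transcription through SREBP2, and proteins that take up, move and store sterol. They were the 33 rows of the deposited count table whose symbol was on a set list, out of 26485 rows, and all 33 were found and tested. The list was chosen with earlier results of these data known. The 6 libraries were made from polyadenylated RNA of HuCCT1 cells, an established line from a human cancer of the bile ducts. The AQP1 KO libraries a, b and c came from CRISPR clone 22, and the WT libraries a, b and c came from CRISPR clone 1. Both were grown in DMEM-F12 with foetal bovine serum. AQP1 encodes the water channel aquaporin-1. Each genotype is 1 clone, so genotype and clone cannot be told apart, and since nothing in the labels ties the letters to separate cultures, the p-values rest on a spread that may be technical.

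Cholesterol is made in the cytosol and endoplasmic reticulum. The mevalonate pathway turns acetyl-CoA into isoprenoid units, these are joined into squalene, squalene is closed to lanosterol, and lanosterol is trimmed to cholesterol. Transcription of these enzymes is driven by SREBP2, the product of SREBF2, which is made as a membrane-bound precursor. When sterol is low, SCAP escorts the precursor to the Golgi, where the proteases encoded by MBTPS1 and MBTPS2 release its active part. When sterol is high, INSIG proteins hold SCAP back, and INSIG1 is itself a target of SREBPs. Liver X receptors act in the opposite situation: they bind oxysterols and turn on sterol export.

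Promoter sequence of 5 genes is shown first, as a description. SREBPs are known to act with the factors NF-Y and SP1 at promoters, and their part in these data was not tested. SREBF2 is shown as the member in which the sterol regulatory element TCACNCCAC was found. INSIG1, HMGCS1 and MSMO1, which had the largest falls, and NPC1, which had the largest rise, were chosen after their values were seen. Each run is the 250 bases before the RefSeq start of the gene on GRCh38.p14, written 5′ to 3′ on the strand of the gene. Capitals mark TCACNCCAC and the NF-Y box CCAAT, which reads ATTGG on the other strand. The windows are chr7:155297628-155297877 (INSIG1, plus strand), chr5:43313413-43313662 (HMGCS1, minus strand), chr4:165327419-165327668 (MSMO1, plus strand), chr22:41832855-41833104 (SREBF2, plus strand) and chr18:23586507-23586756 (NPC1, minus strand).
INSIG1: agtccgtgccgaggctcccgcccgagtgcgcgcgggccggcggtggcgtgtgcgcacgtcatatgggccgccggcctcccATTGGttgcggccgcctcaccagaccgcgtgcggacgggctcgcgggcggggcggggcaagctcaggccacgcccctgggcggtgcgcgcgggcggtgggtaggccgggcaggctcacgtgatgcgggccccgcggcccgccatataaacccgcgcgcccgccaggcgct
HMGCS1: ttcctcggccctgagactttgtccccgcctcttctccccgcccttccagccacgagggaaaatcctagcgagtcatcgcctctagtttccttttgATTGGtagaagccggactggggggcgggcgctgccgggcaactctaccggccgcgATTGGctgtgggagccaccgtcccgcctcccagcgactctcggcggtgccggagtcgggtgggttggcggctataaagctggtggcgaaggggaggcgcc
MSMO1: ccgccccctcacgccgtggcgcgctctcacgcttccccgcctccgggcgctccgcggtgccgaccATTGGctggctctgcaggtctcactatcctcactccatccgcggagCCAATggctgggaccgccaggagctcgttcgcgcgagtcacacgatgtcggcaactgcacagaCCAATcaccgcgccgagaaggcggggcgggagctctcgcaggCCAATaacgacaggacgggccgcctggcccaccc
SREBF2: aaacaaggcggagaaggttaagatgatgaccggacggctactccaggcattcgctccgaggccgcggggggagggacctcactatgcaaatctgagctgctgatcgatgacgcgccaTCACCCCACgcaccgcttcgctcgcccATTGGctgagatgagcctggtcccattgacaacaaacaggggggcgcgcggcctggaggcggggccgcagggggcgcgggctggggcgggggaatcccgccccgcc
NPC1: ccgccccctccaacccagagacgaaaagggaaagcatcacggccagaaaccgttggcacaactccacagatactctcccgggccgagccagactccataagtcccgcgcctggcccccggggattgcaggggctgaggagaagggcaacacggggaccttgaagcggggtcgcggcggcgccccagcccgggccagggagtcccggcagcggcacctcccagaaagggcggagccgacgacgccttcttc

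The libraries held 36925338 to 41724447 counts. Levels are counts per 1000000 counts of a library (CPM), and errors are SD over n = 3 libraries per clone. Fold changes are AQP1 KO over WT from edgeR's quasi-likelihood test across 14405 genes, with Benjamini-Hochberg (BH) adjusted p-values and a threshold of 0.05. Of all genes tested, 74.4% passed, 37.2% lower and 37.1% higher in AQP1 KO, and in 77.3% the libraries of the clones did not overlap. Small differences therefore passed, so the size is given beside each call. Counts for the AQP1 gene itself were 10, 7 and 7 in the AQP1 KO libraries, against 2, 8 and 10 in the WT libraries, too few to check the label.

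The sterol genes as a group were lower in the AQP1 KO clone. Of the 33, 25 were lower, 7 were higher and 1 did not pass, against the 37.2% and 37.1% of all genes. The libraries of the clones did not overlap in 32 of 33, against 77.3% of all genes tested. At least 2-fold lower were 14 of 33, where 9.05% of all genes were, and no member was 2-fold higher. The median log2 fold change was -0.79, against 0.01 over all genes tested. As the list was chosen with earlier results of these data known, these shares describe the list and are not independent evidence. Together the 33 genes took 0.181 to 0.185% of the counts of an AQP1 KO library and 0.319 to 0.323% of a WT library. No member was near the detection limit: the lowest level was 4.33 CPM, for HSD17B7 in AQP1 KO library b.

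**Figure D1:**
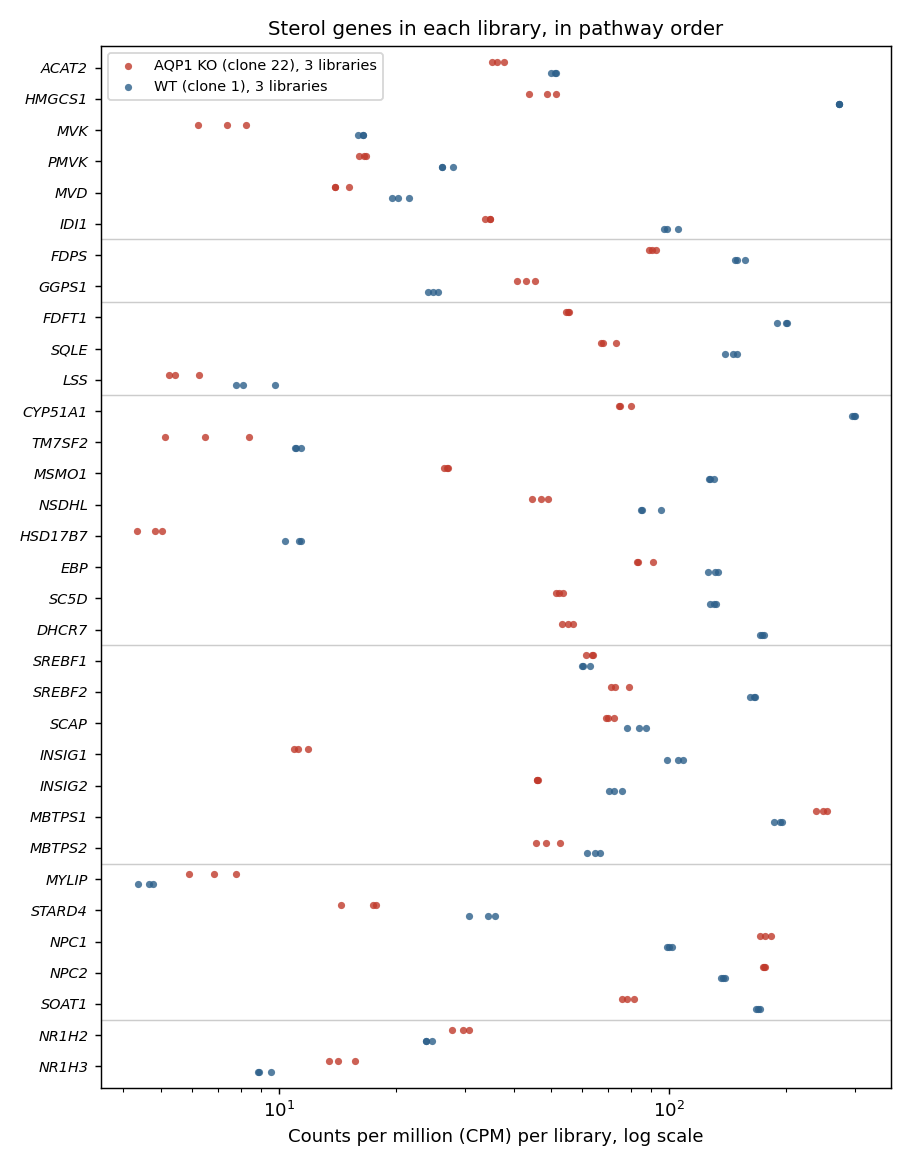
Level of each of the 33 sterol genes in each library, in CPM on a log axis, with genes in pathway order and roles separated by lines. AQP1 KO libraries lie left of the WT libraries for 18 of the 19 enzymes, and among the 33 genes the clones overlap only for SREBF1. Of all genes tested, the clones did not overlap in 77.3%.

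The fall ran through the enzymes almost without a break. Of the 19 enzymes 18 were lower and 10 were at least 2-fold lower, against 37.2% and 9.05% of all genes tested. The median log2 fold change was -1.12, and the exception was GGPS1. The summed level of the 19 was 769 to 780 CPM in AQP1 KO libraries and 1975 to 2001 CPM in WT libraries.

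In the mevalonate pathway all 6 genes were lower, 3 by at least 2-fold, against 37.2% and 9.05% of all genes tested. HMGCS1, which condenses acetyl-CoA units into the precursor of mevalonate, had 48.8, 43.7 and 51.5 CPM in AQP1 KO libraries a, b and c, against 274, 274 and 274 CPM in WT libraries a, b and c. All AQP1 KO libraries lay far below all WT libraries, and the WT libraries were almost identical. The log2 fold change was -2.57 (SE 0.0426, edgeR with BH, adjusted p = 5.97e-15), the largest fall among the enzymes. IDI1, which interconverts the isoprenoid units, had 34.8, 34.8 and 33.8 CPM in AQP1 KO libraries and 98.7, 106 and 97.5 CPM in WT libraries, again without overlap (log2 fold change -1.60, SE 0.0441).

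The remaining steps of this stretch fell less. MVK, the kinase that phosphorylates mevalonate, averaged 7.28 ± 1.02 CPM in AQP1 KO and 16.3 ± 0.254 CPM in WT (log2 fold change -1.21). PMVK, which adds the next phosphate, averaged 16.5 ± 0.362 CPM in AQP1 KO and 26.8 ± 0.966 CPM in WT (log2 fold change -0.76). MVD, the decarboxylase that yields isopentenyl diphosphate, averaged 14.3 ± 0.673 CPM in AQP1 KO and 20.5 ± 1.05 CPM in WT (-0.57). The thiolase gene ACAT2, at the entry of the pathway, had the smallest fall of the 6, with 36.5 ± 1.28 CPM in AQP1 KO and 50.9 ± 0.778 CPM in WT (-0.53, SE 0.0524). Its exons share bases with those of SOD2 and TCP1 on the opposite strand. SOD2 was higher (log2 fold change 0.81) and TCP1 lower (-0.35), and whether reads were counted by strand is not given in the sources used here, so the ACAT2 value is uncertain.

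At the branch point the genes moved apart. FDPS makes farnesyl diphosphate, the substrate of squalene synthase. It had 88.9, 92.7 and 90.3 CPM in AQP1 KO libraries a, b and c and 148, 157 and 149.9 CPM in WT libraries a, b and c (log2 fold change -0.80, SE 0.0305). GGPS1, which makes geranylgeranyl diphosphate for the lipid anchors of small GTPases, went the other way, with 45.5, 42.9 and 40.9 CPM in AQP1 KO libraries and 24.9, 24.1 and 25.6 CPM in WT libraries (log2 fold change 0.74, SE 0.0604, adjusted p = 7.78e-08 in the same test). The count ratio of FDPS to GGPS1 within a library was 1.96, 2.16 and 2.21 in AQP1 KO and 5.95, 6.51 and 5.85 in WT libraries a, b and c. The exons of GGPS1 share 1422 bases, 37.3% of their length, with TBCE on the same strand, and TBCE rose by 0.93, so how the reads were divided between them is unknown and the rise of GGPS1 is uncertain.

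Squalene and ring formation fell at each of its 3 steps, where 37.2% of all genes tested were lower. FDFT1, squalene synthase, the first step committed to sterol, had 54.6, 55.4 and 55.1 CPM in AQP1 KO libraries and 199, 190.0 and 201 CPM in WT libraries. The groups were far apart, with a log2 fold change of -1.89 (SE 0.02997, adjusted p = 3.69e-15). SQLE, squalene epoxidase, had 73.1, 67.1 and 67.7 CPM in AQP1 KO libraries and 149.5, 146 and 139 CPM in WT libraries (log2 fold change -1.12). LSS, which closes the rings to lanosterol, was low in both clones, at 5.64 ± 0.542 CPM in AQP1 KO and 8.55 ± 1.07 CPM in WT (-0.65, SE 0.127, adjusted p = 3.58e-04).

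All 8 genes that convert lanosterol to cholesterol were lower and 5 were at least 2-fold lower, against 37.2% and 9.05% of all genes tested. Their median log2 fold change was -1.32. MSMO1, an oxidase that removes methyl groups of the sterol ring, had 27.2, 26.5 and 26.9 CPM in AQP1 KO libraries and 130.4, 128 and 127 CPM in WT libraries (log2 fold change -2.31, SE 0.0351). CYP51A1, the demethylase that acts on lanosterol, had 74.3, 80.01 and 74.9 CPM in AQP1 KO libraries and 295, 299.5 and 298 CPM in WT libraries (-2.01, SE 0.0314). DHCR7, the reductase that completes cholesterol, had 55.1, 53.3 and 56.95 CPM in AQP1 KO libraries and 173, 171 and 176 CPM in WT libraries (-1.71, SE 0.0293). In each of these genes the highest AQP1 KO library was below 0.5 times the lowest WT library. The exons of CYP51A1 share 79.4% of their bases with another annotated gene model on the same strand, which was not among the tested rows.

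SC5D, a sterol desaturase, averaged 52.4 ± 1.15 CPM in AQP1 KO and 130.1 ± 2.53 CPM in WT (log2 fold change -1.37). HSD17B7, a sterol ketoreductase, averaged 4.72 ± 0.357 CPM in AQP1 KO and 11.03 ± 0.566 CPM in WT (-1.28). Its pseudogene HSD17B7P2 had 1.15 ± 0.308 CPM in AQP1 KO and 1.54 ± 0.0962 CPM in WT, so reads shared between the copies make the HSD17B7 level uncertain. NSDHL, which acts with MSMO1 in demethylation, averaged 46.9 ± 2.22 CPM in AQP1 KO and 88.6 ± 6.07 CPM in WT (-0.97). The mildest falls were those of TM7SF2, a sterol reductase, at 6.66 ± 1.65 CPM in AQP1 KO and 11.2 ± 0.2103 CPM in WT (-0.79, SE 0.147), and of the isomerase gene EBP, at 85.96 ± 4.600 CPM in AQP1 KO and 130.4 ± 3.92 CPM in WT (-0.66, SE 0.0362).

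Among the 7 genes of SREBP control, 5 were lower, 1 was higher and 1 did not pass. Of all genes tested, 37.2% were lower and 37.1% higher. The SREBP genes differed from each other. SREBF2, which encodes SREBP2, had 79.1, 72.8 and 70.9 CPM in AQP1 KO libraries a, b and c and 166, 166 and 161 CPM in WT libraries a, b and c. The libraries did not overlap and the log2 fold change was -1.20 (SE 0.0374, adjusted p = 3.20e-12 in edgeR's test). SREBF1, which encodes SREBP1, the factor known mainly for fatty acid synthesis, had 61.3, 64.1 and 63.5 CPM in AQP1 KO libraries and 60.1, 62.9 and 59.9 CPM in WT libraries. These libraries overlapped, and the log2 fold change of -0.0081 (95% interval by normal approximation -0.09 to 0.08) did not pass (adjusted p = 0.872 in the same test). Its sign turned under other scalings, and the counts do not separate its transcript forms. Within a library the count ratio of SREBF2 to SREBF1 was 1.29, 1.14 and 1.12 in AQP1 KO and 2.75, 2.64 and 2.69 in WT libraries a, b and c. An exact permutation test of 3 against 3 libraries cannot give a p below 0.10, so this ratio was not tested.

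INSIG1, the sterol-responsive anchor of SCAP, had the largest fall of all 33 genes. It had 11.2, 10.9 and 11.9 CPM in AQP1 KO libraries and 109, 105 and 98.7 CPM in WT libraries, with no overlap (log2 fold change -3.26, SE 0.0563, adjusted p = 8.25e-15). Its paralog INSIG2, which is known to respond less to sterol, had 45.9, 46.2 and 46.01 CPM in AQP1 KO libraries and 72.3, 76.05 and 70.2 CPM in WT libraries (-0.72, SE 0.0451). INSIG2 counts thus exceeded INSIG1 counts in every AQP1 KO library and in no WT library: the count ratio of INSIG1 to INSIG2 was 0.244, 0.237 and 0.258 in AQP1 KO and 1.504, 1.39 and 1.41 in WT libraries a, b and c. These ratios are not scaled for length, but the exon lengths are close, at 3650 and 3950 bases in GENCODE 29.

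The transport and cleavage machinery differed by less than 1.5-fold. SCAP averaged 70.4 ± 1.62 CPM in AQP1 KO and 83.2 ± 4.71 CPM in WT (log2 fold change -0.30). MBTPS1, the protease that makes the first cut in SREBPs, was the only one of these 7 genes to rise, with 247 ± 7.36 CPM in AQP1 KO and 191 ± 4.704 CPM in WT (0.32, SE 0.0284). MBTPS2, the protease of the following cut, averaged 48.8 ± 3.48 CPM in AQP1 KO and 64.3 ± 2.56 CPM in WT (-0.45). Its exons share 1093 bases with YY2, which was measured at 10.00 ± 0.2200 CPM in AQP1 KO and 7.896 ± 0.778 CPM in WT. SCAP, MBTPS1 and MBTPS2 passed against no change but did not pass against a 1.5-fold change.

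Genes of uptake, trafficking and storage were split, with 2 lower and 3 higher, where 37.2% and 37.1% of all genes tested were. SOAT1, which esterifies cholesterol for storage in droplets, had 75.7, 81.6 and 78.3 CPM in AQP1 KO libraries and 168, 172 and 169.7 CPM in WT libraries (log2 fold change -1.17, SE 0.0307). NPC1, the membrane protein that exports cholesterol from lysosomes, showed the reverse, with 183, 171 and 177 CPM in AQP1 KO libraries and 99.9, 102 and 99.1 CPM in WT libraries (0.76, SE 0.02901, adjusted p = 2.36e-11). NPC1 counts were 2.41, 2.099 and 2.26 times the SOAT1 counts in AQP1 KO libraries a, b and c and 0.596, 0.594 and 0.584 times in WT libraries a, b and c. NPC2, the soluble lysosomal carrier that works with NPC1, averaged 175 ± 1.06 CPM in AQP1 KO and 138 ± 1.402 CPM in WT, a smaller rise (0.29, SE 0.0244).

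STARD4, a cytosolic sterol carrier and known SREBP2 target, had 17.5, 14.4 and 17.8 CPM in AQP1 KO libraries and 35.9, 30.7 and 34.3 CPM in WT libraries (log2 fold change -1.08, SE 0.0814). Its antisense neighbour STARD4-AS1, which shares exon bases with it, was higher, at 2.22 ± 0.944 CPM in AQP1 KO and 0.332 ± 0.111 CPM in WT. MYLIP, a ligase that marks lipoprotein receptors for degradation and a known liver X receptor target, had 6.83, 5.89 and 7.77 CPM in AQP1 KO libraries and 4.76, 4.36 and 4.65 CPM in WT libraries (0.52, SE 0.136, adjusted p = 0.00346). The liver X receptor genes were both higher. NR1H3 had 14.2, 13.4 and 15.7 CPM in AQP1 KO libraries and 8.83, 9.58 and 8.92 CPM in WT libraries (0.61, SE 0.08800). NR1H2 averaged 29.5 ± 1.49 CPM in AQP1 KO and 24.1 ± 0.491 CPM in WT (0.24, SE 0.0567). Overlaps on opposite strands leave further values uncertain: exons of MVK share bases with MMAB (log2 fold change -0.94), of SREBF1 with RAI1 (-0.34), of NR1H3 with ACP2 (-0.30), and of NPC1 with RMC1, by 604 bases.

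**Figure D2:**
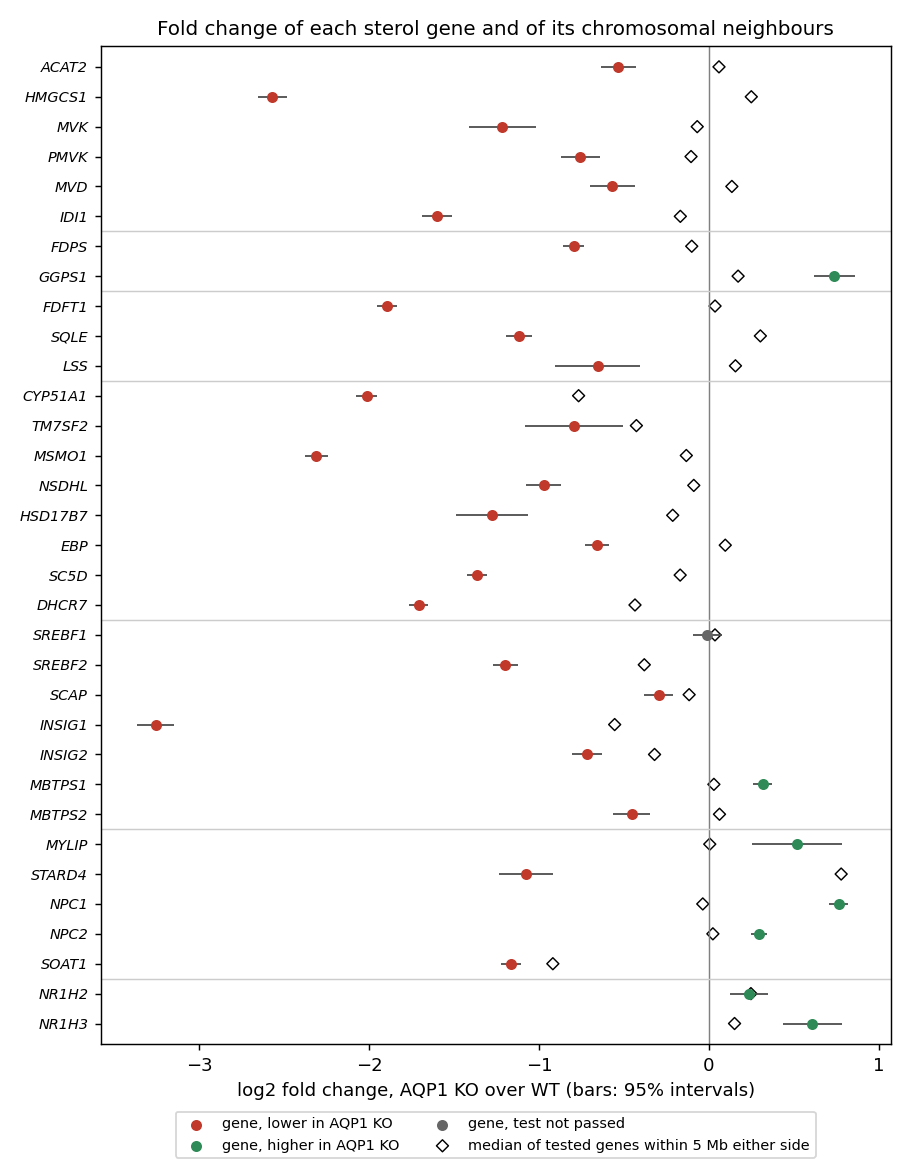
Log2 fold change of each sterol gene, AQP1 KO over WT, with bars of 95% intervals from the standard error by normal approximation. Open diamonds mark the median log2 fold change of the tested genes within 5 Mb either side of the gene. INSIG1 lies farthest left at -3.26, NPC1 farthest right at 0.76, and 27 of the 33 genes lie left of their own neighbours' median. The share of all genes tested that do so was not computed.

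Medians of neighbouring genes differed between parts of the genome, so each gene was set beside its surroundings. The median log2 fold change of the 22 to 226 tested genes within 5 Mb of a member ranged from -0.92 to 0.78, and it was beyond 0.5 in size for 4 members. SOAT1 lay in the lowest such window (median -0.92), only -0.25 on the log2 scale from it. SREBF2, with a log2 fold change of -1.20, lay in a window with a median of -0.38, a difference of -0.82. Both genes were thus less than 2-fold below their windows. The window of CYP51A1 had a median of -0.77 and that of INSIG1 -0.55, and these genes were lower still, with differences from their windows of -1.25 and -2.70. STARD4 went against its window, whose median was 0.78. Set against their windows, 12 members remained at least 2-fold lower, and the 19 enzymes had a median difference of -1.06. The same difference was not computed for all genes tested, so these values have no background share beside them. Whether regional shifts had a part in the fall of any member was not tested.

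Because longer transcripts collect more counts, levels of different genes were compared per kilobase of exon (GENCODE 29 exon lengths, which need not be those used in counting). The length is the union of all annotated exons of a gene. Genes with many annotated transcript forms may therefore be placed too low. On that scale CYP51A1 had the highest level of the 33 in WT, at 83.00, followed by HMGCS1, at 58.2 CPM per kilobase. In AQP1 KO, CYP51A1 was at 21.3 and HMGCS1 at 10.2 CPM per kilobase, places 6 and 16. The highest in AQP1 KO was NPC2, at 63.8 CPM per kilobase, against 50.1 in WT, followed by EBP, at 35.7 in AQP1 KO and 54.1 in WT. INSIG1 was at place 26 in AQP1 KO and 11 in WT, while MBTPS1 stood at place 4 in AQP1 KO and 17 in WT. In AQP1 KO, MBTPS1, FDPS and NSDHL differed by less than 1 CPM per kilobase, with SDs of up to 1.11, so their order is not resolved. LSS was lowest in both clones, at 0.779 in AQP1 KO and 1.18 CPM per kilobase in WT.

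**Figure D3:**
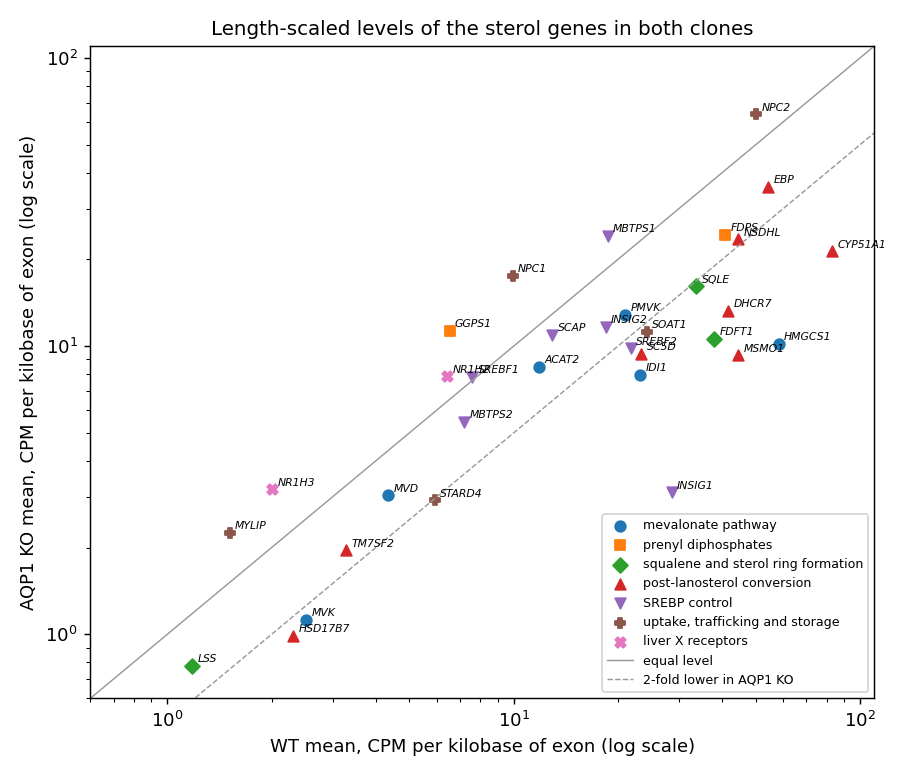
Mean level per kilobase of exon in AQP1 KO (vertical) against WT (horizontal), both on log axes, for the 33 genes by role. The solid line marks equal levels and the dashed line a 2-fold fall; NPC1, GGPS1 and MBTPS1 lie above the solid line and INSIG1, HMGCS1 and MSMO1 far below the dashed one.

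Promoter letters, which the choice of genes did not use, were read as a description. RefSeq promoters were matched for 30 of the 33 genes (not ACAT2, FDFT1 or SQLE). The NF-Y box CCAAT, on either strand in the 250 bases before the start, was found in 18 of 30 and in 12 of the 16 enzyme promoters, against 33.04% of 27305 promoters and 34.9% of those of tested genes. The SP1 box GGGCGG was found in 25 of 30, against 42.3% of all promoters and 65.9% of those of tested genes. As printed above, HMGCS1 holds 2 NF-Y boxes, MSMO1 holds 4, INSIG1 and SREBF2 hold 1 each and NPC1 holds none. CYP51A1 and IDI1, which also fell by more than 2-fold, had none in their windows. The windows of CYP51A1, DHCR7, MVK, PMVK and SCAP lay inside the RefSeq span of the gene. For these genes the bases before the outermost start were not searched. Sterol genes with a box had a median log2 fold change of -1.12 (n = 18, 16 of them below 0) and those without -0.15 (n = 12, 7 below 0). This split was in large part one by role, since 12 of the 18 genes with a box were enzymes. The enzymes without a box were CYP51A1 (-2.01), IDI1 (-1.60), PMVK (-0.76) and GGPS1 (0.74). The other genes without a box were regulators, trafficking genes and liver X receptors. Over all tested genes the medians with and without the box were -0.01 and 0.01. None of these shares or medians was tested.

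The sterol regulatory element TCACNCCAC, on either strand, was found in SREBF2, as TCACCCCAC starting at position -133 from the start, and in no other of the 30 windows. It occurs in 0.875% of all promoters. The search allowed only these letters, so it says nothing of elements with other letters or farther away.

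**Figure D4:**
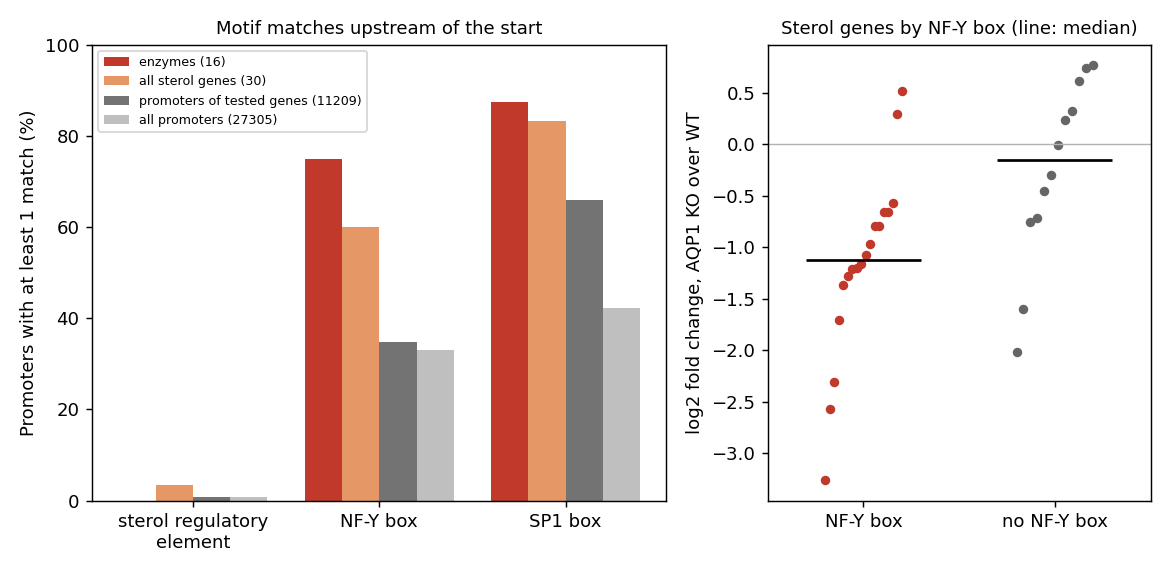
Left, percentage of promoters with at least 1 match to each motif in the 250 bases before the start, for enzymes, all sterol genes, tested genes and all promoters. Right, log2 fold change of 30 sterol genes with and without an NF-Y box, with medians of -1.12 and -0.15 as lines. Most genes with a box were enzymes and most without were not.

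Related genes were described from further lists, with the 2 largest passing changes of each direction named. Their counts stand beside the 37.2% lower and 37.1% higher of all genes tested. Acetyl-CoA supply fell in all 5 genes, with a median of -0.57. ACLY, which makes cytosolic acetyl-CoA from citrate, averaged 267 ± 6.23 CPM in AQP1 KO and 415 ± 5.44 CPM in WT, and SLC25A1, the citrate carrier, 40.3 ± 1.98 CPM in AQP1 KO and 62.3 ± 2.399 CPM in WT. Of 12 tested SREBP1 fatty acid genes, 9 were lower and 2 higher, with a median of -0.71, although SREBF1 itself did not pass. FASN and SCD, fatty acid synthase and desaturase, had log2 fold changes of -1.84 and -1.46, while ACACB, a carboxylase that limits fatty acid oxidation, rose by 1.22 and GPAM, of triglyceride synthesis, by 0.21.

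Of 8 accessory genes of sterol synthesis, 5 were lower and 3 higher (median -0.20), against 37.2% and 37.1% of all genes tested. POR, the electron donor of microsomal P450 enzymes, had a log2 fold change of -0.88 and LBR, a sterol reductase of the nuclear envelope, of -0.79. FAXDC2, at 1.88 ± 0.255 CPM in AQP1 KO and 0.485 ± 0.0809 CPM in WT, and EBPL (0.48), a paralog of EBP, were higher.

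Of 6 tested genes of lipoprotein uptake, 3 were lower, 1 was higher and 2 did not pass. LIPA, the lysosomal lipase that frees cholesterol from lipoprotein esters, averaged 118 ± 2.42 CPM in AQP1 KO and 341 ± 5.998 CPM in WT (log2 fold change -1.59). LRP8, a lipoprotein receptor, averaged 73.9 ± 3.31 CPM in AQP1 KO and 92.4 ± 3.097 CPM in WT (-0.38). The riser was LRP1, a broad endocytic receptor, at 82.9 ± 7.93 CPM in AQP1 KO and 9.55 ± 1.61 CPM in WT (3.06). Of 13 tested genes of sterol transport and storage, 5 were lower, 5 higher and 3 did not pass, close to the 37.2% lower and 37.1% higher of all genes tested. NCEH1, a cholesteryl ester hydrolase (-0.74), and TMEM97, which binds NPC1 (-0.72), were lower. GRAMD1B and GRAMD1A, which carry cholesterol from the plasma membrane to the endoplasmic reticulum, were higher, GRAMD1B at 7.85 ± 1.04 CPM in AQP1 KO and 0.931 ± 0.0591 CPM in WT and GRAMD1A at 30.1 ± 0.822 CPM in AQP1 KO and 13.6 ± 1.49 CPM in WT.

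Of 6 listed liver X receptor targets, 4 were tested, with 3 higher and 1 lower, against 37.1% and 37.2% of all genes tested. The exporter gene ABCG1 had 71, 76 and 67 counts in the AQP1 KO libraries, against 2, 0 and 2 counts in the WT libraries, and the phospholipid transfer gene PLTP had 20, 21 and 15 counts in AQP1 KO libraries and 0, 2 and 0 in WT libraries. Both could pass the filter on low counts only through the AQP1 KO libraries, so a higher AQP1 KO level was a condition of their being tested. LPCAT3, named outside the rule, was high enough in both clones, at 169.9 ± 2.19 CPM in AQP1 KO and 75.3 ± 1.67 CPM in WT (log2 fold change 1.12). SMPDL3A was lower (-0.58).

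Cell identity markers were read beside these results, against the 37.2% lower and 37.1% higher of all genes tested. The cholangiocyte keratin genes KRT7 (1613 ± 12.5 CPM in AQP1 KO and 1751 ± 38.3 CPM in WT) and KRT19 (93.5 ± 4.59 CPM in AQP1 KO and 756 ± 13.8 CPM in WT), with SOX9 and EPCAM, were present in both clones, and all 4 were lower in AQP1 KO. EPCAM, an epithelial adhesion gene, was at 40.7 ± 1.41 CPM in AQP1 KO and 484 ± 6.24 CPM in WT. The summed level of the 4 was 1797 to 1829 CPM in AQP1 KO libraries and 3084 to 3159 CPM in WT libraries. Of 8 hepatocyte markers 3 were tested and all were higher. SERPINA1 was at 70.9 ± 3.34 CPM in AQP1 KO and 53.5 ± 1.92 CPM in WT. FGB was at 15.6 ± 1.09 CPM in AQP1 KO and 0.0403 ± 0.0136 CPM in WT, and FGA, at 2.23 ± 0.326 CPM in AQP1 KO, had 0 counts in the WT libraries, so both could be tested only through the AQP1 KO libraries. The defining hepatocyte gene ALB was at 0.0344 ± 0.0299 CPM in AQP1 KO and 0.0161 ± 0.0279 CPM in WT, TTR was at 0 in every library, and the list summed to 86.2 to 93.8 CPM in AQP1 KO libraries and 52.1 to 55.8 CPM in WT libraries. Of 6 fibroblast markers 4 were tested and 3 were higher, with sums of 27.8 to 32.7 CPM in AQP1 KO libraries and 14.98 to 17.3 CPM in WT libraries, and COL1A2 was at 0 in the AQP1 KO libraries. DCN, which was among the higher ones, had 32, 36 and 39 counts in the AQP1 KO libraries and 0, 0 and 4 in the WT libraries, so it too could be tested only through the AQP1 KO libraries. LUM was also higher, at 17.4 ± 0.675 CPM in AQP1 KO and 5.33 ± 0.616 CPM in WT. PDGFRB was higher at 2.72 ± 0.339 CPM in AQP1 KO and 0.653 ± 0.226 CPM in WT. COL1A1 did not pass, at 9.07 ± 2.10 CPM in AQP1 KO and 9.89 ± 0.589 CPM in WT. The part of these shifts in the sterol genes was not tested, and fewer cells expressing a gene cannot be told apart from less RNA per cell.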

How the data were processed

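The authors deposited 1 table of read counts per gene symbol, whole numbers with no normalization. Libraries were made with a stranded TruSeq kit, per the labels' protocols. The tools named in the submitters' processing notes are HISAT2, edgeR, FastQC and Trimmomatic 0.33, with build hg38. Which program counted reads, on which annotation and with which strand setting, is not given in the sources used here. Groups and letters follow the genotype and clone labels. The test was the quasi-likelihood F test of edgeR 4.0.16 (R 4.3.3) after filterByExpr and TMM scaling, with no covariate. BH adjustment was over 14405 genes, with a threshold of 0.05. The steps of the test were also run on simulated data. Far fewer genes changed there than were called here, so that run does not check scaling at this share of changes. Printed CPM use library totals without TMM factors. A standard error is the size of a log2 fold change over the root of its F. Pairs of libraries within a group had a chi-square of 4.18 to 7.61 per degree of freedom, so none agreed within sampling noise. Depth was 36925338 to 41724447 counts per library; 3 counts equal 0.0719 to 0.0812 CPM. The alternatives tried were DESeq2 1.42.0, limma-voom (limma 3.58.1), scaling by RLE factors or by totals, filtering at 1 CPM in 3 libraries or not at all, a block for the letters, leaving out each library, a threshold of 0.01 and a 1.5-fold null hypothesis (glmTreat). Coordinates and promoters are from RefSeq (GRCh38.p14, the assembly of hg38); 14105 of 14405 tested symbols matched. The 33 members and all lists and tests were chosen with earlier results of these data known. Named were all members and, per further list, the 2 largest passing rises and falls (all genes of marker lists were read). Some listed genes are not reported here and were left out of the counts, medians and sums of their lists.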

Additional observations from a re-analysis of the deposited data

How the results depend on the processing

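The counts of 25 lower and 7 higher sterol genes were the same under DESeq2, limma-voom, RLE factors, scaling by totals, a 1 CPM minimum, the absence of a filter, the replicate block, an adjusted p of 0.01 and with each library left out. Only the test against a 1.5-fold change moved them, to 19 lower and 2 higher, and moved all genes called to 4354, against 10711. The 11 genes that then did not pass were ACAT2, MVD, LSS, TM7SF2, SCAP, MBTPS2, MBTPS1, MYLIP, NPC2, NR1H2 and NR1H3. SREBF1, which passed in no fit, turned sign: its log2 fold change was 0.0059 under RLE factors, 0.046 under library totals, 0.0073 under a 1 CPM minimum and 0.0060 under DESeq2, and -0.025 to 0.018 with a library left out. No other member reversed. Of 462 refitted values, 457 lay within 0.1 of the value reported, and the largest shift was that of TM7SF2, to -0.99 without AQP1 KO library b. With the replicate block 10599 genes were called. Same-lettered libraries did not deviate together (correlations 0.0577, -0.0195 and 0.00822 for a, b and c), so the letters were not taken as pairs. The standard errors were widest for TM7SF2 (0.147), MYLIP (0.136) and LSS (0.127), all under 12 CPM in every library.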

Other observations

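Further lists had calls near the background of all genes tested, of which 37.2% were lower and 37.1% higher in AQP1 KO. Of 14 genes of protein prenylation, dolichol, ubiquinone and transfer RNA modification, 6 were lower, 6 higher and 2 did not pass (edgeR with BH adjustment), with a median log2 fold change of -0.10. DHDDS, of dolichol synthesis, averaged 30.8 ± 0.264 CPM in AQP1 KO and 49.5 ± 2.07 CPM in WT, and RABGGTA, of Rab prenylation, 13.9 ± 0.807 CPM in AQP1 KO and 22.3 ± 1.305 CPM in WT. FNTA, a subunit shared by prenyltransferases, averaged 65.6 ± 3.85 CPM in AQP1 KO and 38.1 ± 2.29 CPM in WT, and PDSS2, of ubiquinone synthesis, 12.6 ± 0.685 CPM in AQP1 KO and 9.67 ± 1.02 CPM in WT. Whether these genes differ from the sterol enzymes was not tested.

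Of 14 genes for sterol-regulated protein degradation and SREBP processing, 6 were lower, 4 higher and 4 did not pass, with a median of -0.04, again near the shares of all genes tested. UFD1L (now UFD1), which extracts ubiquitinated proteins from the membrane, had a log2 fold change of -0.77, and FBXW7, which marks active SREBPs for degradation, of -0.61. RNF139, a membrane ubiquitin ligase gene, and C12orf49 (now SPRING1), which is needed for SREBP processing, were higher, by 0.63 and 0.19. Of 8 oxysterol and bile acid genes only 3 were tested. CYP27A1, a sterol hydroxylase, averaged 6.74 ± 0.457 CPM in AQP1 KO and 3.31 ± 0.628 CPM in WT, and HSD3B7 6.65 ± 1.02 CPM in AQP1 KO and 21.1 ± 2.08 CPM in WT. CYP39A1 did not pass, at 0.339 ± 0.128 CPM in AQP1 KO and 0.299 ± 0.206 CPM in WT.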
